A study of Mus musculus with 2 samples.

Results

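The genes described here form the pathway of MHC class I antigen presentation: B2m, H2-K1, H2-D1, H2-T23, H2-Q7, Tap1, Tap2, Tapbp, Psmb8 and Psmb9. They were found by their symbols among the 31053 genes of both matrices, and all 10 were present. Each of the 10 also had a UMI (unique molecular identifier, 1 captured transcript) in at least 3 of the cells kept after quality filtering, as did 14935 genes in all. The data came from mouse lung measured by droplet-based single-cell RNA sequencing (10x Chromium 3' v3.1), with 1 library from mice in normoxia and 1 from mice after 3 weeks of hypoxia. Both groups were C57/B6 mice of 2 to 4 months, and no transgene or other agent was named for either. The study describes several wild-type animals under hypoxia, but whether a library pooled them is not stated in the sources used here. Before loading, cells bearing CD45 (leukocytes) or CD326 (epithelium) were removed with magnetic beads in both groups.

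Class I molecules carry short peptides from inside a cell to its surface, where CD8+ T cells and natural killer cells read them. A heavy chain pairs with the light chain beta-2-microglobulin; peptides are cut by the proteasome, moved into the endoplasmic reticulum by the TAP transporter and fitted into the groove with the help of tapasin. Nearly all nucleated cells express the pathway, endothelium among the highest, and interferons are its best known inducers.

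Among the genes, H2-K1 and H2-D1 encode the classical heavy chains H-2K and H-2D of the H-2b haplotype. H2-T23 encodes Qa-1, which is read by natural killer cells, and H2-Q7 encodes Qa-2. Tap1 and Tap2 encode the subunits of the peptide transporter, and Tapbp encodes tapasin. Psmb8 and Psmb9 encode the inducible catalytic subunits that turn a proteasome into an immunoproteasome. In the GENCODE M21 annotation of GRCm38, 9 of the genes lie on chromosome 17, within the H-2 complex between Tapbp (from 33915899) and H2-T23 (to 36032855). B2m lies apart, at chr2:122147686-122153083. Psmb9 (chr17:34181987-34187764, minus strand) and Tap1 (chr17:34187553-34197225, plus strand) point away from each other and overlap at their starts.

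The stretches before the annotated starts are shown because the classical class I promoters are known for a shared set of elements, and the results below contrast genes that hold them in different number. RefSeq windows (GRCm38.p6) were matched for 9 of the 10 genes, all but Tap2, and the 250 bases before each start were searched on both strands. The letters searched were GGGATTCCC (a kappa B element, as in enhancer A), AANNGAAA (the core of an interferon response element), TGACG (the core of a cyclic AMP response element, as in the X2 box) and CCAAT (the Y box). Capitals mark the matches in either orientation, and no match overlapped another. H2-K1 is printed from chr17:34000348-34000577 on the minus strand, H2-Q7 from chr17:35438925-35439154 on the plus strand and B2m from chr2:122147457-122147686 on the plus strand, each the last 230 bases before the RefSeq start, read 5′ to 3′.
H2-K1: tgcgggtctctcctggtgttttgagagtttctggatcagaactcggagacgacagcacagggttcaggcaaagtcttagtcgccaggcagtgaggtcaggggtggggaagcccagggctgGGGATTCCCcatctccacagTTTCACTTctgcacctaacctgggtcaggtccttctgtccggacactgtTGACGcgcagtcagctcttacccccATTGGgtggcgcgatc
H2-Q7: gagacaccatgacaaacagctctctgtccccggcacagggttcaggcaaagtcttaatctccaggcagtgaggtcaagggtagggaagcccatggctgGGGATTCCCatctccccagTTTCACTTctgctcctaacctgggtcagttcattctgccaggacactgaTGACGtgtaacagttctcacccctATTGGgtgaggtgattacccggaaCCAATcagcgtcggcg
B2m: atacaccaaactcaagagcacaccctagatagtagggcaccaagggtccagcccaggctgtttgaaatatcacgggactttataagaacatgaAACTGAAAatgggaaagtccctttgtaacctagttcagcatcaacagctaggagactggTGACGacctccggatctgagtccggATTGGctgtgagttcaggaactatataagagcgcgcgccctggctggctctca

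For H2-D1, H2-T23 and Tap1, whose windows overlap annotated exons, short stretches around the elements are shown for comparison with the 3 windows above. They lie at chr17:35262923-35262951 (H2-D1, plus strand), chr17:36032736-36032765 (H2-T23, minus strand) and chr17:34187458-34187487 (Tap1, plus strand). In Tapbp, Psmb9 and Psmb8 too, all of the last 230 bases before the RefSeq start are annotated as exon. Those 230 bases begin at 34197965 in Psmb8 and 33919248 in Tapbp, past the GENCODE gene starts of 34197721 and 33915899.
H2-D1: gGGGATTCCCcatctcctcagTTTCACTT
H2-T23: gttttctaaaagCCAATcagcgacgcagag
Tap1: cccagagacaggTGACGacagagggtcctg

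The kappa B letters were found in 3 of the 9 windows (H2-K1, H2-D1 and H2-Q7) and in 0.301% of all 32851 mouse windows. The interferon response core was found in 5 windows (those 3, B2m and H2-T23) against 21.3% of all windows, TGACG in 6 (H2-K1, H2-D1, H2-Q7, B2m, Tap1 and Psmb9) against 17.8%, and CCAAT in 8 (all but Psmb8) against 33.8%. The Tap1 and Psmb9 windows cover nearly the same bases on opposite strands. Their TGACG matches are the same site, as are their CCAAT matches, so each such site is counted for both genes. All 4 occurred together in H2-K1, H2-D1 and H2-Q7 and in no window of any other gene. The letters were chosen as known elements of class I promoters, so the shares of all windows are no test of specificity. H2-K1 and H2-D1 were identical at 87.4% of their aligned bases, H2-K1 and H2-Q7 at 88.2%, and H2-D1 and H2-Q7 at 85.8%. The order kappa B, interferon core, TGACG and CCAAT was the same in these 3 genes. A match describes letters only. The kappa B search took a single exact sequence and no variants of it. Windows without it, B2m among them, are not thereby shown to lack other kappa B elements. Psmb8, with none of the 4 in a window that begins inside the annotated gene, is not thereby shown to lack such sites elsewhere.

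**Figure D1:**
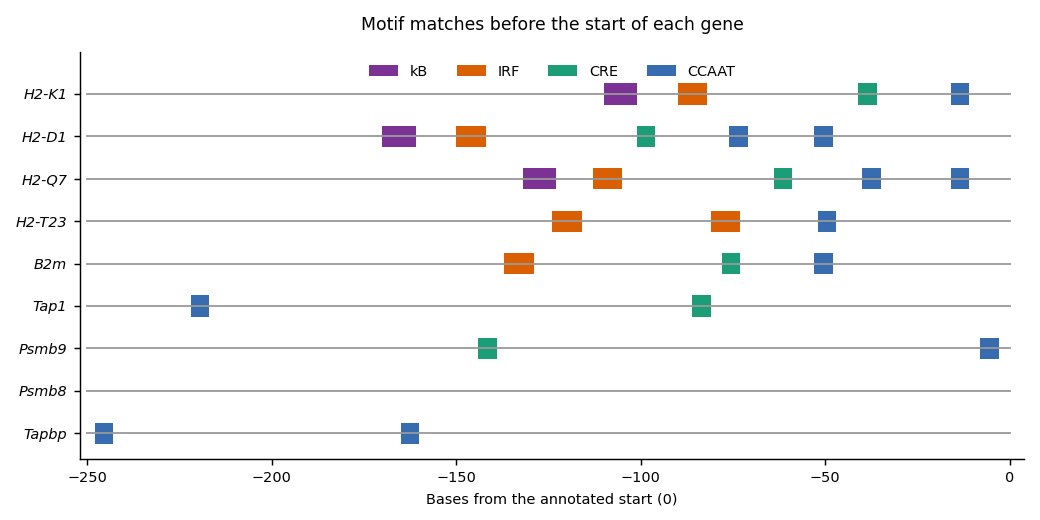
Matches of 4 promoter motifs (kB, IRF, CRE and CCAAT) in the 250 bases before the RefSeq start of the 9 genes with a window; the horizontal axis is the distance from the start in bases. H2-K1, H2-D1 and H2-Q7 hold all 4 motifs in the same order, and Psmb8, whose window lies inside the annotated gene, holds none.

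The normoxia matrix held 2223 cells and the hypoxia matrix 809, of which 1348 and 689 were kept, with 5173361 and 2294966 UMIs and medians of 3453 and 2224 UMIs per cell. More than 5% mitochondrial UMIs excluded 37.6% of the normoxia cells and 13.2% of the hypoxia cells, and 1 cell barcode occurred in both libraries. Cells were clustered without the class I genes and named from marker genes, as "like" a cell type. EC-like (endothelial) cells numbered 825 in normoxia and 584 in hypoxia, and fibroblast-like cells 191 and 36. Cdh5 or Pecam1, which define endothelium, had a UMI in 98.3% of the EC-like cells in normoxia and 93.5% in hypoxia. The subtype names rest on markers too: those of aerocytes summed to 17066 CPM (UMIs per 1000000 UMIs of the same cells) in normoxia aerocyte-like cells and 1073 CPM in general capillary-like cells, and those of veins to 6841 CPM in venous-like cells and 334 CPM in general capillary-like cells. Arterial markers separated less, at 3099 CPM in normoxia arterial-like cells and 1607 CPM in general capillary-like cells (2410 and 1516 CPM in hypoxia). In normoxia, arterial-like cells also held 1856 CPM of the venous markers. General capillary markers separated least from veins and arteries. In normoxia they stood at 7999 CPM in general capillary-like, 4894 in venous-like and 4472 in arterial-like cells (6803, 4792 and 4785 CPM in hypoxia). Of the 15 EC-like clusters, 7 drew over 90% of their cells from a single library. Ptprc (CD45) had 4 UMIs in all normoxia EC-like cells and 1 in hypoxia, and the 6 leukocyte markers summed to 5.36 and 7.70 CPM, 1 of them at 0 in normoxia. Each condition was a single library, so no replicate spread exists and nothing was tested; condition and library cannot be told apart. The 95% intervals given in parentheses cover counting error only.

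In normoxia, EC-like cells held more of every class I gene than fibroblast-like cells did. B2m stood at 2654 CPM (2600 to 2708) in EC-like and 751 CPM (694 to 812) in fibroblast-like cells, a 3.53-fold difference (3.26 to 3.84). H2-K1 differed 6.49-fold, H2-D1 5.38-fold and H2-T23 3.79-fold. H2-Q7 differed most among the 10, with 771 CPM in EC-like and 29.9 CPM in fibroblast-like cells, a 25.8-fold difference (17.4 to 39.9). Of the loading machinery, Tap1 was 5.21-fold, Psmb9 5.33-fold and Psmb8 4.59-fold higher in EC-like cells, while Tapbp (2.49-fold) and Tap2 (2.37-fold) showed the smallest differences. All 10 genes passed 1.5-fold in normoxia, where 29.4% of the 8487 genes with at least 50 UMIs did. All 10 also did so in hypoxia, against 48.6% of 6122 genes, and there H2-Q7 differed 8.14-fold (4.12 to 18.9), H2-K1 3.62-fold and B2m 1.82-fold. H2-Q7 had 25 UMIs in normoxia and 8 in hypoxia fibroblast-like cells, whose 10 EC markers stood at 3.44% and 16.5% of their EC-like level. How much of the fibroblast-like H2-Q7 came with endothelial RNA was not tested.

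Summed over the 10 genes, the order of the endothelial subtypes in normoxia ran from general capillary-like cells (10475 CPM, 10344 to 10607) through venous-like (9536) and aerocyte-like cells (9400) to arterial-like (7001) and lymphatic-like cells (3921). The intervals of venous-like (9209 to 9871) and aerocyte-like cells (9175 to 9629) overlapped, as did those of lymphatic-like cells and the alveolar type 1 (AT1)-like cells at 4246 CPM. Pericyte-like cells (22 in normoxia) stood at 2525 CPM and fibroblast-like cells at 2064 CPM. Against pericyte-like cells, 9 of the 10 genes were past 1.5-fold higher in EC-like cells, where 38.1% of genes were, and Tap2 was lower in EC-like cells, at a ratio of 0.625 (0.415 to 0.987). In hypoxia, general capillary-like cells stood at 14088 CPM, aerocyte-like at 12885, arterial-like at 10717, venous-like at 8537, fibroblast-like at 5055 and AT1-like cells at 4547 CPM, of which only the last 2 had overlapping intervals. Venous-like cells thus stood second in normoxia and last of the 4 blood vessel subtypes in hypoxia. The sums are carried mainly by B2m, H2-K1 and H2-D1. The 10 EC markers reached 28.3% of their EC-like level in normoxia AT1-like cells and 21.7% in hypoxia, and how much of the class I level there came with that RNA was not tested. Between the libraries, AT1-like cells (46 and 12) had 1546 and 2189 CPM of B2m and 1172 and 730 CPM of H2-D1, a ratio for H2-D1 of 0.622 (0.323 to 1.10). Of the 3 genes with enough UMIs there, H2-D1 was past 1.5-fold lower, against 31.4% of genes, and none was past it higher, against 17%.

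**Figure D2:**
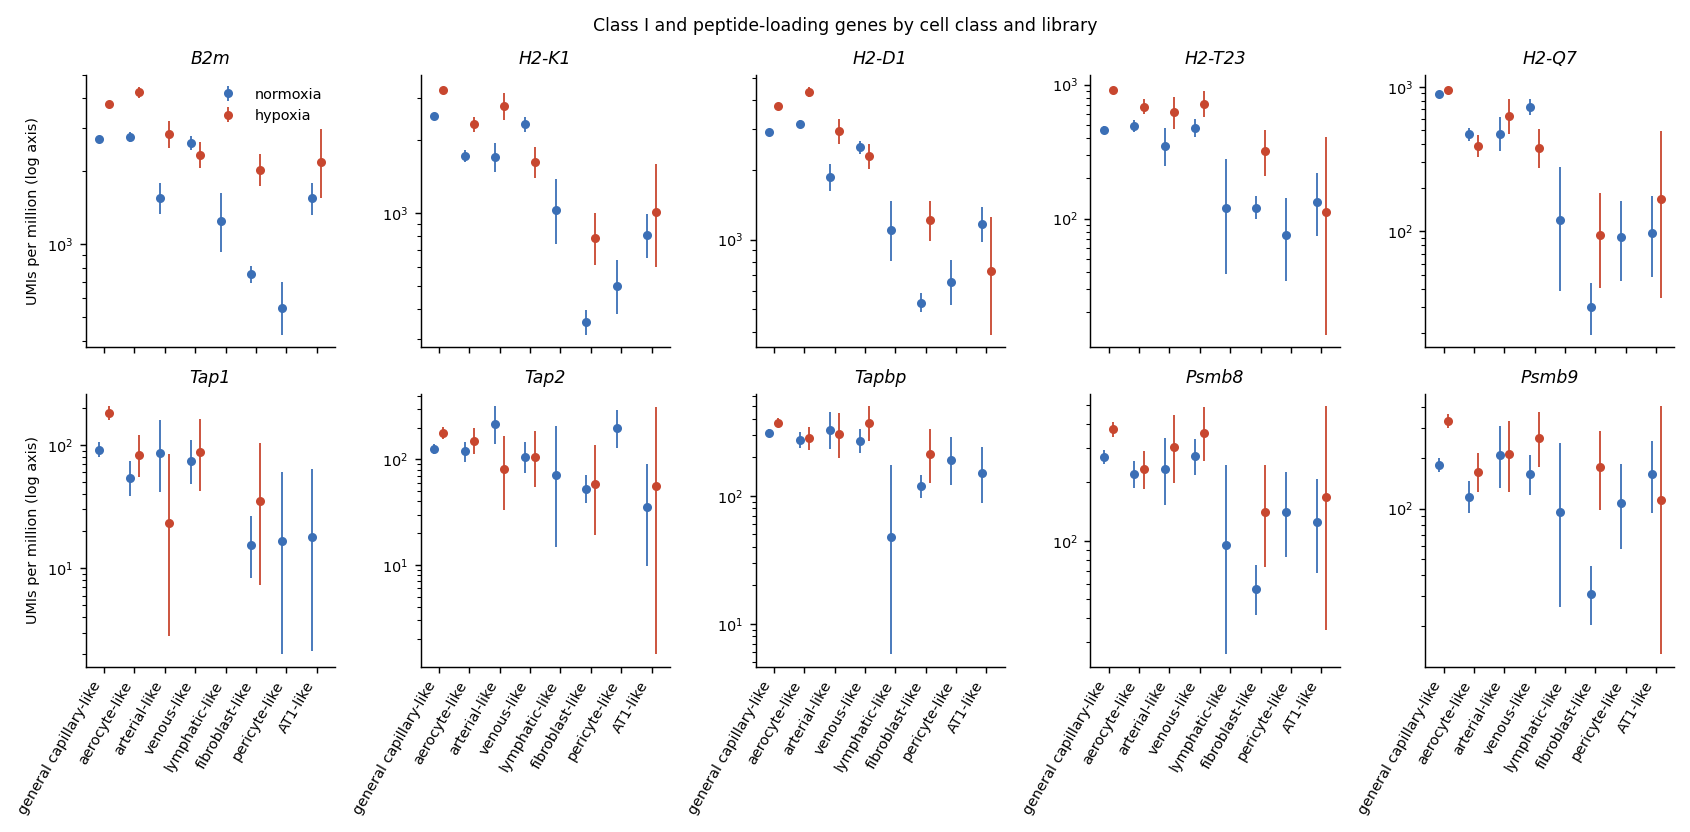
Level of each class I gene in UMIs per 1000000 UMIs (log axis, scaled for each gene) by cell class, with 95% Poisson intervals that cover counting error; blue is normoxia and red is hypoxia, for classes of at least 10 cells and values above 0. Endothelial subtypes stand above fibroblast-like cells for nearly every gene, and H2-Q7 is at 29.9 UMIs per 1000000 UMIs in normoxia fibroblast-like cells.

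The subtypes differed gene by gene. Aerocyte-like cells, the large flat capillary cells of the gas exchange surface, were close to general capillary-like cells in B2m in normoxia (2765 against 2708 CPM, ratio 1.02, 0.970 to 1.07) but held less H2-Q7 (468 against 896 CPM, ratio 0.523, 0.464 to 0.587). In hypoxia the H2-Q7 ratio was 0.415 (0.344 to 0.496). Tap1 in aerocyte-like cells was at 0.589 of the general capillary-like level in normoxia and 0.455 in hypoxia, and Psmb9 at 0.651 and 0.495. H2-K1 was lower too, at 0.687 and 0.720, while H2-D1 was slightly higher, at 1.08 and 1.15. Past 1.5-fold lower were 3 of the 10 genes in normoxia (H2-Q7, Tap1 and Psmb9), against 20.5% of the genes compared, and 4 in hypoxia (the same with Psmb8), against 24.7%.

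Arterial-like cells (20 in normoxia and 17 in hypoxia) had a lower level of the structural chains in normoxia. B2m was at 0.571 of the general capillary-like level (0.489 to 0.662), H2-D1 at 0.637 and H2-Q7 at 0.530, while Tap2 was at 1.72 (1.09 to 2.58) on 25 UMIs. Past 1.5-fold lower were 3 genes (B2m, H2-D1 and H2-Q7), against 27.9% of all compared. In hypoxia B2m stood at 0.751 and H2-D1 at 0.777, and the 3 genes past 1.5-fold lower, against 24.2%, were the sparse ones, Tap1 (2 UMIs), Tap2 (7 UMIs) and Psmb9 (18 UMIs). Venous-like cells lay close to general capillary-like cells in normoxia, with ratios between 0.808 (Tap1) and 1.03 (H2-T23), none past 1.5-fold lower against 20% of genes. In hypoxia they held 0.501 of the general capillary-like H2-K1 level (0.430 to 0.581), 0.618 of B2m, 0.607 of H2-D1 and 0.400 of H2-Q7 (0.288 to 0.541), while Tapbp (0.989) and Psmb8 (0.962) lay near 1. Past 1.5-fold lower there were 6 of the 10 (also Tap1 and Tap2, on 10 and 12 UMIs), against 23.4% of genes. Lymphatic-like cells, with 11 cells in normoxia, held 0.459 of the general capillary-like B2m level (0.343 to 0.603) and 0.133 of H2-Q7 on 5 UMIs (0.0433 to 0.312). All 10 genes were past 1.5-fold lower there, against 40.1% of genes, Tap1 with no UMI.

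Within the heavy chains, the share that each gene took of the 4 genes' UMIs also differed between classes; these are shares of 3' end tags, not of protein. H2-Q7 took 13.2% of them in normoxia general capillary-like cells (12.7 to 13.7), 8.01% in aerocyte-like cells (7.20 to 8.88) and 2.88% in fibroblast-like cells (1.87 to 4.22). The fibroblast-like share rests on 25 H2-Q7 UMIs, and the part of them from endothelial RNA was not tested. H2-D1 took 54.1% in aerocyte-like cells (52.6 to 55.6) against 43.1% in general capillary-like cells (42.3 to 43.9). The same order held in hypoxia, with H2-D1 at 56.1% and 42.7%. The transcripts of these genes resemble each other: of the 90-base windows at the ends of the annotated coding transcripts, 3 of 93 of H2-Q7 occur also in H2-Q5, 6 of 42 of H2-T23 in other loci, and 1 of 296 of H2-K1 in other class I genes, so their counts are slightly uncertain.

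Between the libraries, 9 of the 10 genes stood higher in hypoxia EC-like cells and H2-Q7 stood level. Of the heavy chains, H2-K1 had 2289 CPM in normoxia and 2853 in hypoxia, giving a ratio of 1.25 (1.21 to 1.29). H2-D1 had 2876 and 3644 CPM, a ratio of 1.27 (1.23 to 1.31). The classical chains thus differed by nearly the same factor. H2-T23, which encodes Qa-1, had 458 CPM in normoxia and 821 in hypoxia, giving a ratio of 1.79 (1.67 to 1.92), and H2-Q7 had 771 and 766 CPM, a ratio of 0.994 (0.934 to 1.06). H2-T23 and H2-Q7 therefore lay at opposite ends of the 10 genes, with Tap1 (1.78) and Psmb9 (1.77) close to H2-T23. By motif, H2-Q7 holds the same 4 as H2-K1 and H2-D1, and H2-T23 holds 2 of them. Whether the motifs relate to these ratios was not tested. Of the last 230 bases before the H2-T23 start, 154 are annotated as exon, as are all 230 in H2-D1. H2-T23 is thus not shown to lack the other motifs elsewhere. As a share of heavy-chain UMIs, H2-T23 made up 7.17% in normoxia (6.84 to 7.51) and 10.2% in hypoxia (9.70 to 10.6), and H2-Q7 12.1% (11.6 to 12.5) and 9.47% (9.03 to 9.93).

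The light chain B2m had 2654 CPM in normoxia and 3688 in hypoxia EC-like cells, giving a ratio of 1.39 (1.35 to 1.43). B2m UMIs per heavy-chain UMI were 0.415 and 0.456. The transporter genes differed unequally: Tap1 had 81.0 and 144 CPM, a ratio of 1.78 (1.51 to 2.10), and Tap2 had 125 and 157 CPM, a ratio of 1.26 (1.09 to 1.46). Tapbp (tapasin) had 295 and 342 CPM, the smallest ratio above 1 at 1.16 (1.05 to 1.28). The immunoproteasome subunits differed in the same manner as the transporter genes. Psmb9 had 166 and 293 CPM, a ratio of 1.77 (1.58 to 1.98), and Psmb8 had 258 and 342 CPM, a ratio of 1.33 (1.20 to 1.47). In all EC-like cells, Tap1 and Psmb9, which share a start region, thus had nearly equal ratios, and each exceeded that of its partner subunit. Pooled within clusters shared by the libraries, as described below, their ratios differed, at 1.59 and 1.36. Over 21 groups of cells, the correlation of their levels (Pearson's r) was 0.17. Sparse counts enter that value: Tap1 had 0 UMIs in normoxia lymphatic-like and hypoxia AT1-like cells. It had 2 in normoxia pericyte-like and hypoxia arterial-like cells. The value therefore cannot show that the genes vary apart.

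H2-T23, Tap1 and Psmb9 passed 1.5-fold, the size used to call a difference, so 3 of 10 genes were past it in the higher direction and 0 in the lower. Of the 8725 genes with at least 50 UMIs in these cells, 7.79% were past 1.5-fold higher and 9.93% past it lower. The median log2 ratio was 0.38 over the 10 genes and 0.03 over all genes tested. The libraries differed in other respects in the same cells. The immediate-early genes Fos and Atf3, known to respond to tissue dissociation, stood at 1568 and 1069 CPM in normoxia and 352 and 248 CPM in hypoxia. Cd74, the invariant chain of MHC class II, stood at 1012 and 4926 CPM. Their part in the class I ratios was not tested.

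**Figure D3:**
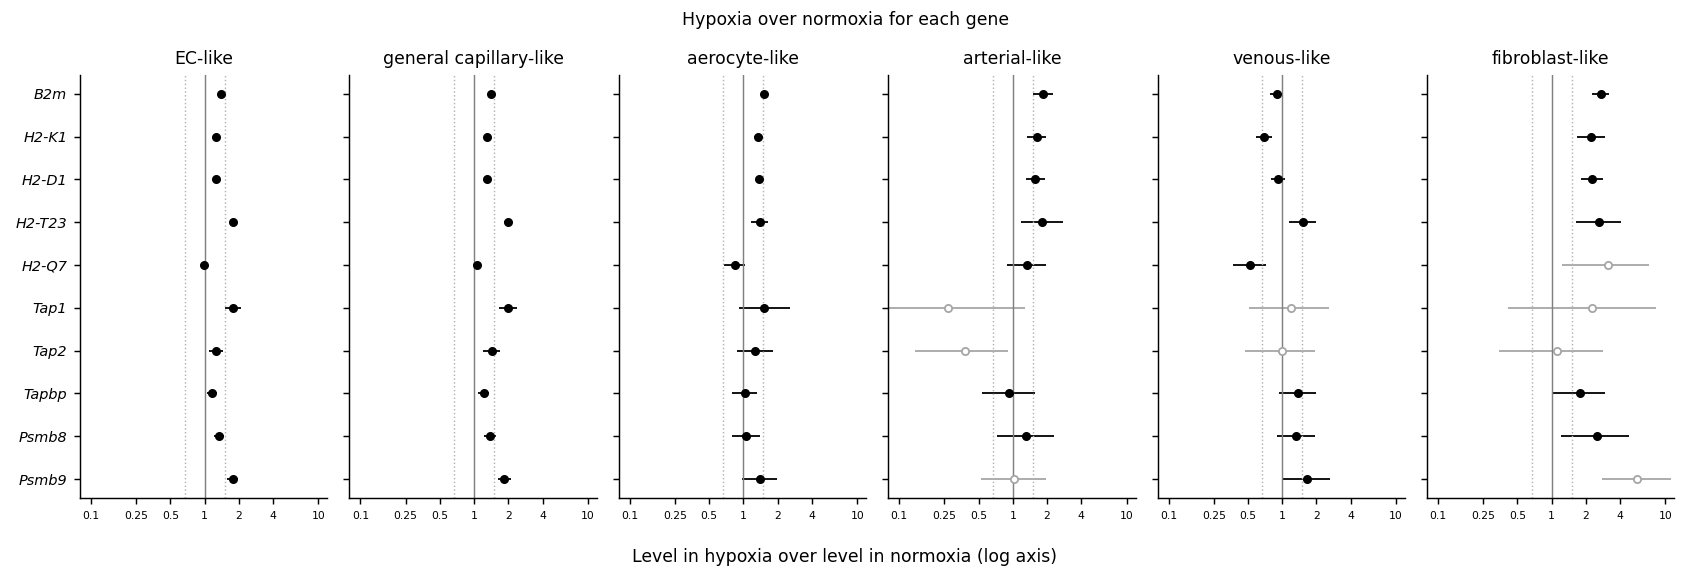
Ratio of the level in hypoxia to the level in normoxia for each class I gene (log axis), in all EC-like cells, 4 endothelial subtypes and fibroblast-like cells, with 95% intervals for counting error; dotted lines mark 1.5-fold either way and grey open points are genes under 50 UMIs. H2-T23, Tap1 and Psmb9 lie right of the dotted line in EC-like cells and H2-Q7 lies at 0.994, whereas venous-like H2-K1 and H2-Q7 lie below 1.

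In single cells the distributions overlapped widely. The 10 genes took a median of 0.971% of an EC-like cell's UMIs in normoxia (middle 50% of cells 0.729 to 1.23%) and 1.15% in hypoxia (0.805 to 1.55%). In general capillary-like cells the medians were 1.00% and 1.30%. After each cell was thinned to 1000 UMIs, which left out 39 shallower EC-like cells in normoxia and 111 in hypoxia, a median of 4 of the 10 genes was detected in normoxia and 5 in hypoxia. At least 5 genes were detected in 43.8% of thinned EC-like cells in normoxia (40.3 to 47.3) and 58.4% in hypoxia (53.8 to 62.8). H2-T23 was detected in 35.8% and 49.3% of thinned cells, against 74.3% and 71.7% before thinning, when the normoxia cells were deeper (medians of 3979 and 2693 UMIs). Tap1 was detected in 7.76% and 12.9% of thinned cells, and H2-Q7 in 54.7% and 49.5%. No class here is known to lack class I transcripts, so the share that free RNA adds could not be read from these genes.

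**Figure D4:**
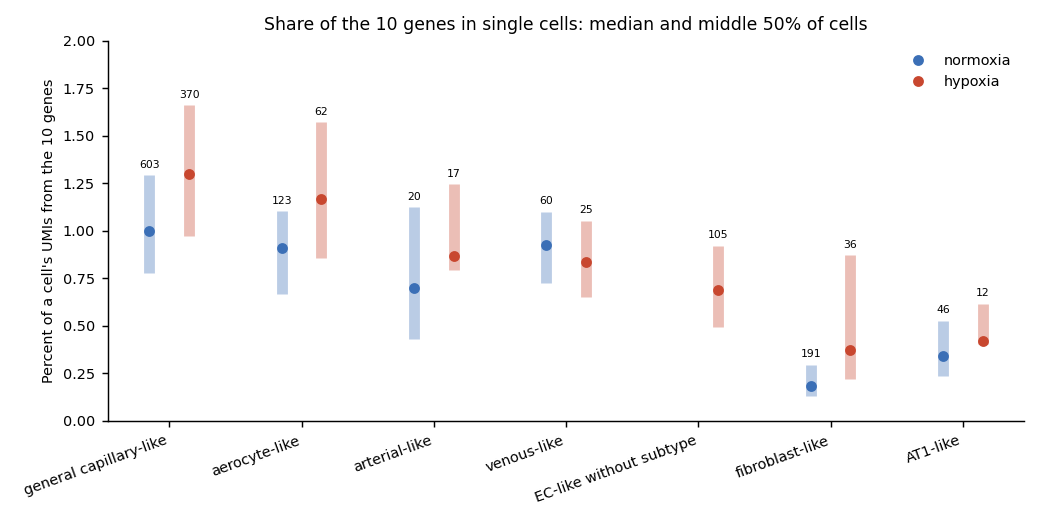
Percent of each cell's UMIs that came from the 10 class I genes, by class and library: points are medians, bars the middle 50% of cells, and the printed numbers count the cells. General capillary-like medians are 1.00% in normoxia and 1.30% in hypoxia, and venous-like medians are 0.927% and 0.835%.

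General capillary-like cells, the Gpihbp1- and Kit-bearing cells that make up most lung capillary endothelium, showed the same 3 genes past 1.5-fold as all EC-like cells, of which they were the largest subtype. H2-T23 had 459 CPM in normoxia and 909 in hypoxia, giving a ratio of 1.98 (1.82 to 2.15). Tap1 had 91.5 and 181 CPM, a ratio of 1.98 (1.65 to 2.39), and Psmb9 had 181 and 333 CPM, a ratio of 1.84 (1.61 to 2.11). No class I gene was past 1.5-fold lower; of 7667 genes, 10.3% were past it higher and 9.64% lower. B2m had a ratio of 1.40, Tap2 of 1.43, and H2-Q7 of 1.06 (0.985 to 1.13). With the subtype set by each cell's own markers (264 and 193 cells, against 603 and 370 by cluster), Tap1 was no longer past 1.5-fold (1.34). H2-T23 (1.73) and Psmb9 (1.54) still were. Different clusters held most of this subtype in the libraries. Clusters led by Hey1 and Lpl, by Socs3 and Ier3 and by Gm16486 held most of the normoxia cells, and clusters led by Mal and Ntrk2, by Gm26870 and H2-DMa and by Pard3bos1 most of the hypoxia cells. The marker share behind the subtype name (at least 0.3 was needed) was 0.791, 0.662 and 0.689 in the former clusters. It was lower, at 0.437, 0.414 and 0.481, in the latter.

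In aerocyte-like cells (123 and 62) B2m had 2765 CPM in normoxia and 4223 in hypoxia, giving a ratio of 1.53 (1.43 to 1.64). Tap1 also had a ratio of 1.53, but on 38 and 28 UMIs its interval ran from 0.905 to 2.56. These were the only 2 of the 10 genes past 1.5-fold higher, against 8.27% of 3678 genes, and none was past it lower, against 11%. H2-T23 had a ratio of 1.39 (1.18 to 1.65) and H2-Q7 of 0.837 (0.680 to 1.03). The calls depended on the setting. With the subtype set by each cell's own markers (135 and 110 cells), B2m was at 1.48 and Tap1 at 1.34. With up to 6000 genes allowed per cell, H2-T23 (1.55) and Psmb9 (1.55) were past 1.5-fold. In arterial-like cells B2m (ratio 1.84, 1.51 to 2.24), H2-K1 (1.62), H2-D1 (1.57) and H2-T23 (1.80) were past 1.5-fold higher among 7 genes with enough UMIs, against 17.4% of 671 genes, and none was past it lower, against 14.9%. These 4 values rested on 20 and 17 cells, and with cells of up to 10% mitochondrial UMIs included, which left 28 and 4 arterial-like cells, B2m was at 1.07, H2-K1 at 1.05, H2-D1 at 0.795 and H2-T23 at 0.579. By each cell's own markers, which called 232 and 174 cells arterial-like, H2-T23 (2.04) alone of the 4 was past 1.5-fold.

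Venous-like cells (60 and 25) had lower levels of H2-K1 and H2-Q7 in hypoxia. H2-K1 had 2326 CPM in normoxia and 1618 in hypoxia, giving a ratio of 0.696 (0.589 to 0.818), and H2-Q7 had 725 and 378 CPM, a ratio of 0.522 (0.368 to 0.723). B2m (0.891, 0.774 to 1.02) and H2-D1 (0.916, 0.794 to 1.05) lay slightly below 1 with intervals that include it. H2-T23 nonetheless had 473 and 721 CPM, a ratio of 1.52 (1.15 to 2.00), and Psmb9 160 and 264 CPM, a ratio of 1.65 (1.02 to 2.63). H2-T23 thus took 7.85% of the heavy-chain UMIs of venous-like cells in normoxia (6.72 to 9.10) and 14.4% in hypoxia (11.6 to 17.5). Of 8 genes with enough UMIs, 2 were past 1.5-fold higher, against 13.7% of 1633 genes, and only H2-Q7 was past it lower, against 14.6%. When each EC-like cell was instead assigned to the subtype whose markers were most over-represented in it, 84 and 89 cells were venous-like, H2-K1 had a ratio of 1.24, B2m of 1.32 and H2-Q7 of 0.994. The lower venous-like values therefore held for the cluster and not for that assignment. The same assignment called 109 normoxia cells lymphatic-like, where clusters gave 11. It called 232 and 174 cells arterial-like, where clusters gave 20 and 17, so its classes differ widely from the clusters. With resolution 1 or other filters, the count of venous-like genes below 1 stayed within 1.5 times the reported count.

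Because clusters were shared unequally, the genes were also compared inside the 7 EC-like clusters to which each library gave 10 cells or more, which held 556 of the normoxia and 157 of the hypoxia cells. Between 7 and 9 of the 10 genes had a ratio above 1 in 6 of these clusters, and 5 of 10 in the venous-like cluster. These counts used no UMI minimum: in the cluster led by Scgb1a1, Tap1 had 1 UMI in normoxia and 0 in hypoxia. The share of all genes above 1 was not computed for single clusters, so the counts have no background. Pooled over the 7 clusters, Tap1 had a ratio of 1.59, H2-T23 of 1.49, B2m of 1.36, Psmb9 of 1.36 and H2-Q7 of 0.879. Only Tap1 of the 10 was then past 1.5-fold higher, against 8.22% of 7417 genes, and none was past it lower, against 9.13%. In the cluster led by Rsad2 and Ifit1, both genes of the interferon response (16 and 18 cells), the 10 genes summed to 14896 CPM in normoxia (13893 to 15952) and 15973 in hypoxia (15140 to 16839), the highest of the clusters with at least 10 cells in the normoxia library and likewise in hypoxia. There H2-T23 had a ratio of 2.09 (1.40 to 3.19) and H2-K1 of 0.751 (0.625 to 0.902).

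Fibroblast-like cells held fewer class I transcripts than endothelium in either library but showed larger ratios. B2m had 751 CPM in normoxia and 2022 in hypoxia, giving a ratio of 2.69 (2.26 to 3.19). H2-K1 had 353 and 788 CPM (ratio 2.23, 1.69 to 2.92), and H2-D1 535 and 1211 CPM (ratio 2.26, 1.81 to 2.81). H2-T23 (2.63), Tapbp (1.79) and Psmb8 (2.51) completed the 6 genes with at least 50 UMIs, and all 6 were past 1.5-fold higher, against 17.4% of 3214 genes (31.8% were past it lower). The median log2 ratio was 1.25 for the 6 genes and -0.11 for all genes tested. Over 665 genes with at least 20 UMIs in each library, the median ratio was 1.35, and relative to that B2m stood at 2.00, H2-K1 at 1.66, H2-D1 at 1.68, H2-T23 at 1.95, Psmb8 at 1.86 and Tapbp at 1.33. That minimum is harder to reach in hypoxia (85072 UMIs against 835913 in normoxia), so it favours genes that are higher there. The 1.35 is therefore not a neutral reference. Psmb8 and Tapbp, with 12 and 18 hypoxia UMIs, did not reach the minimum themselves.

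Endothelial transcripts were also higher in hypoxia fibroblast-like cells. The 10 EC markers stood at 3.44% of their EC-like level in normoxia and 16.5% in hypoxia, none of them at 0 in either library. Cdh5 or Pecam1 had a UMI in 17.8% of the fibroblast-like cells in normoxia and 38.9% in hypoxia (median depths 3411 and 1591 UMIs). Cd74 stood at 3.43% and 20.5% of its EC-like level, and the class I genes themselves at 20.7% and 38.7%. In fibroblasts taken by marker genes without any Cdh5 or Pecam1 UMI (144 and 13 cells), the EC markers stood at 0.933% and 2.97% of the EC-like level. The class I sum there was 1840 CPM in normoxia and 3784 in hypoxia, B2m had a ratio of 2.57 and H2-D1 of 2.26, while H2-K1 had 1.10. The cells were drawn from different clusters: all but 3 of the 36 hypoxia cells, but 96 of the 191 in normoxia, came from the cluster led by Ces1d and Mfap4. Within that cluster B2m had a ratio of 1.80 and H2-D1 of 1.40. Each narrower set had 4 of the 6 genes past 1.5-fold: B2m, H2-T23 (2.02 and 2.98) and Tapbp (1.96 and 1.95) in both, H2-D1 in the first and H2-K1 (1.84) in the cluster, while Psmb8 (1.24 and 1.36) was so in neither. With cells of up to 10% mitochondrial UMIs included, 3 of the 6 genes were past 1.5-fold: B2m at 2.14, H2-D1 at 1.72 and H2-T23 at 1.56. The share of all genes past 1.5-fold was not computed for these 3 alternatives, so their counts have no background. The 2 narrower sets held only 13 and 33 hypoxia cells.

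Cells with a strong interferon response offered a comparison inside each library. The 5% of EC-like cells with the largest share of UMIs from 31 interferon-stimulated genes, none of them a class I gene described here, numbered 36 in normoxia and 35 in hypoxia. Tap1 had 283 CPM in these cells and 96.2 in the other EC-like cells, a ratio of 2.94 (2.25 to 3.80). Psmb9 had a ratio of 2.25 (1.83 to 2.74), H2-T23 of 1.66 (1.45 to 1.90) and Psmb8 of 1.60 (1.30 to 1.94). These 4 genes were past 1.5-fold higher, against 11.1% of 8695 genes. The structural chains differed less: B2m had a ratio of 1.31, H2-K1 of 1.37, H2-Q7 of 1.30 and H2-D1 of 1.13, while Tapbp had 1.46 and Tap2 1.20 (0.846 to 1.66). With the highest 10% of cells instead, H2-T23 (1.48) and Psmb8 (1.47) were not past 1.5-fold. The interferon-high cells were not matched to the others by subtype or depth (medians of 3289 and 3622 UMIs). In normoxia the 31 genes stood at 3075 CPM in general capillary-like and 1330 CPM in aerocyte-like cells (4050 and 1366 CPM in hypoxia). Subtype make-up can therefore enter these ratios, and its part was not tested.

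In each library taken alone, Tap1 had the largest ratio. In normoxia, Tap1 had a ratio of 2.27, Psmb9 of 2.11 and Psmb8 of 1.79, and 3 genes were past 1.5-fold against 13.8% of genes. In hypoxia, Tap1 had 3.10, Psmb9 2.11, H2-T23 1.72 and Tapbp 1.54, and 4 genes were past it against 12.7%. H2-T23 had a ratio of 1.31 (1.02 to 1.65) in normoxia and 1.72 (1.45 to 2.03) in hypoxia, with overlapping intervals. Over all EC-like cells the 31 genes summed to 2643 CPM in normoxia and 3313 in hypoxia. Without the interferon-high cells they summed to 2290 and 2628 CPM. In those remaining cells H2-T23 had a hypoxia to normoxia ratio of 1.74, Psmb9 of 1.73 and Tap1 of 1.66. The list and the class I genes respond to the same cytokines, so the comparison describes cells and names no cause.

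**Figure D5:**
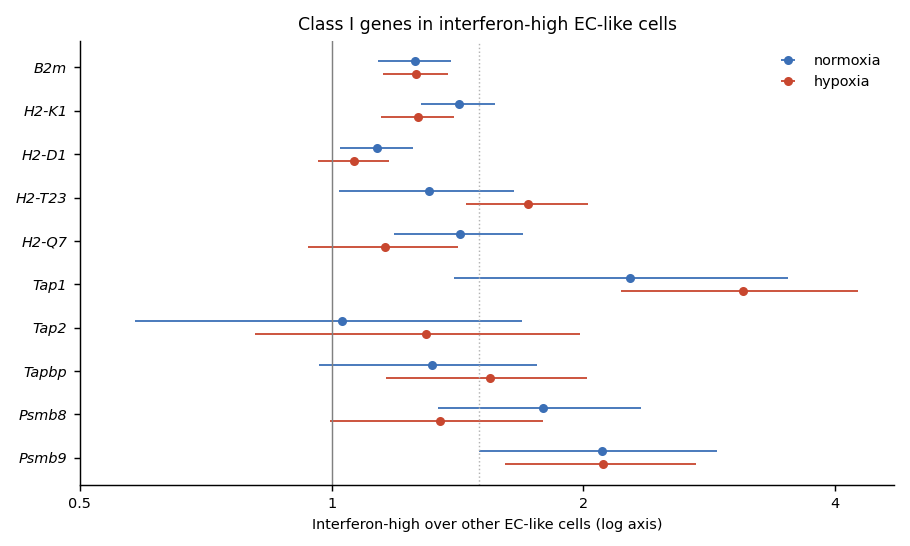
Ratio of the level in interferon-high EC-like cells to that in other EC-like cells (log axis) for the 10 class I genes, by library, with 95% intervals for counting error; the dotted line marks 1.5-fold. Tap1 and Psmb9 lie right of the dotted line in both libraries, and H2-D1 (1.13 and 1.06) lies left of it in both.

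The rest of the pathway was read from a list of 54 genes, of which 52 were in the matrices and 47 had at least 50 UMIs in EC-like cells. Past 1.5-fold higher in hypoxia were 5, and 2 were past it lower; the median log2 ratio was 0.16. Those were 5 and 2 of 47, beside 7.79% and 9.93% of all genes in these cells, so the higher count lay near the share of all genes. Among other heavy chains, H2-T22, a non-classical chain, had 90.5 CPM in normoxia and 177 in hypoxia (ratio 1.96, 1.68 to 2.28), and H2-M3, which presents formylated peptides, had 58.1 and 96.7 CPM (ratio 1.67, 1.36 to 2.03). Calr, the calreticulin of the loading complex, had 512 and 825 CPM (ratio 1.61, 1.51 to 1.72). None of the 10 proteasome genes was past 1.5-fold, and Psmb10, the remaining inducible catalytic subunit, had 194 and 253 CPM (ratio 1.31, 1.16 to 1.47), close to Psmb8.

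Among regulators, the class I transactivator Nlrc5 had 48 and 51 UMIs, or 13.5 and 24.5 CPM (ratio 1.81, 1.20 to 2.75). Ifngr1, a chain of the interferon-gamma receptor, had 241 and 503 CPM (ratio 2.09, 1.91 to 2.29). In the other direction, Irf1, an interferon-induced transcription factor, had 453 and 258 CPM (ratio 0.571, 0.516 to 0.630), and Nfya, a subunit of the factor that binds CCAAT boxes, had 48.5 and 30.3 CPM (ratio 0.625, 0.461 to 0.839). Among the 17 regulators with enough UMIs, 2 were past 1.5-fold higher and 2 lower, beside 7.79% and 9.93% of all genes in these cells. Counts this small give no direction for regulators as a group.

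The genes whose levels most resembled the class I sum were sought over 21 groups of at least 10 cells, each a cell class in 1 library, among 5763 genes with at least 200 UMIs. Pearson's r of the log2 levels was 0.92 for Ly6e, 0.91 for S1pr1, 0.91 for Icam2, 0.91 for Podxl and 0.90 for Ly6a. S1pr1 (a sphingosine phosphate receptor), Icam2 (an adhesion molecule) and Podxl (podocalyxin) are abundant in endothelium, and Ly6a encodes the surface antigen Sca-1. The groups share a library, and many are endothelial, so the values describe a pattern across cell classes only.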

How the data were processed

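Single-cell RNA sequencing was performed on lung cells depleted of CD45 and CD326 from 1 normoxia and 1 hypoxia library. The authors aligned reads to mm10 and deposited raw UMI counts per gene and cell made with Cell Ranger (6.1.2 per the file headers; the submitters' processing notes also name Seurat, version not given), in which every barcode had at least 501 UMIs. Cells entered the analysis with 200 to 4000 genes detected and no more than 5% of UMIs from mitochondria; the upper gene limit was the only treatment of doublets. Counts were log-normalized to 10000 UMIs per cell, and 2000 variable genes were chosen over both libraries together. Those left after removing the class I genes and their wider list gave 30 principal components, 15 neighbours and Leiden clusters at resolution 2. There was no batch correction (Python 3.11.15, scanpy 1.11.5, igraph 0.11.9, numpy 2.4.6, scipy 1.17.1, pandas 2.3.3). Clusters were called "like" a class from at least 3 listed markers, each in 25% of cells.

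Endothelial subtypes needed a marker share of 0.3 and a lead of 1.25 times over the next subtype. These limits were set after the data were seen and left 8 normoxia and 105 hypoxia EC-like cells (0.593% and 15.2% of each library) without a subtype. Levels were UMIs summed per class and library, per 1000000 UMIs of that class (CPM), with exact Poisson intervals; ratios have exact conditional binomial and shares exact Clopper-Pearson intervals, all at 95% and all for counting error only. A difference was called past 1.5-fold among genes with at least 50 UMIs over the groups compared, which is a rule of size and not a test, since each condition has 1 library. Named genes were all 10 class I genes, the genes of the wider list past 1.5-fold with Nlrc5 and Psmb10 whatever their values, and the 5 genes most alike over classes and libraries. The members and lists were chosen with earlier results of these data known. The whole-genome scripts were tested on simulated data. Promoter windows came from RefSeq tables (GRCm38.p6), read with biopython 1.88, and figures were drawn with matplotlib 3.10.9. Alternatives comprised other filters, resolution, thinning, marker gates, per-cell means and UMI minimums.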

Additional observations from a re-analysis of the deposited data

Results flagged for a closer look

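Among genes with at least 50 UMIs over both libraries in the subtype, there were 6 cases in which the ratio of hypoxia to normoxia lay below 1 in an endothelial subtype and above 1 in general capillary-like cells. They were H2-Q7 in aerocyte-like cells (0.837 against 1.06), Tapbp in arterial-like cells (0.927 against 1.21), and B2m (0.891 against 1.40), H2-K1 (0.696 against 1.29), H2-D1 (0.916 against 1.29) and H2-Q7 (0.522 against 1.06) in venous-like cells. Genes with that minimum numbered 10 in aerocyte-like, 7 in arterial-like and 8 in venous-like cells. The median log2 ratio over all genes was 0.007, -0.010 and 0.041 in these subtypes, so ratios below 1 were common. The share of all genes with such a pair of ratios was not computed, so the count of 6 has no background. The differences between subtypes were not tested, since each condition has 1 library. Of these 6, only the venous-like ratios of H2-K1 and H2-Q7 had counting intervals wholly below 1.

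The cells left out for over 5% mitochondrial UMIs alone numbered 813 in normoxia and 107 in hypoxia. They entered the values above only where cells of up to 10% mitochondrial UMIs were included. In 6 class I genes the interval of the ratio lay above 1 there, and 5 of the 10 were past 1.5-fold higher in hypoxia, as were 16.9% of 4775 genes. The ratios were 1.72 for B2m (1230 against 2118 CPM), 1.21 for H2-K1, 1.56 for H2-D1, 1.75 for H2-T23, 1.70 for Tapbp and 2.42 for Psmb9. These cells were not sorted into classes, so differences in cell make-up between the libraries can enter the ratios. Among kept cells, 61.2% were EC-like in normoxia and 84.8% in hypoxia. B2m had a ratio of 1.61 over all kept cells and 1.39 in EC-like cells.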

How the results depend on the processing

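No paired analysis was possible because only 1 library per condition was made. Of the alternatives for single values, 260 stayed within the counting interval of the reported value, 73 moved beyond it and 3 reversed. Nearly all were ratios of single genes. A few were the share of all genes past 1.5-fold higher in EC-like or fibroblast-like cells under other UMI minimums. Reversed means that a ratio crossed 1 where its reported interval excluded 1. Ratios whose reported interval included 1 could cross it without being counted as reversed. Among them were venous-like B2m (0.891, up to 1.32) and arterial-like H2-Q7 (1.33, down to 0.117). Of the counts of genes, 35 stayed within 1.5 times and 5 did not. EC-like genes past 1.5-fold went from 3 to 1 when pooled within clusters to which each library gave 10 cells or more. Fibroblast-like genes went from 6 to 3 with cells of up to 10% mitochondrial UMIs and to 3 among genes with at least 200 UMIs, where fewer genes are tested. Venous-like genes with a ratio below 1 went from 4 to 1 when subtypes were set by each cell's markers, and interferon-high genes went from 4 to 2 with the highest 10% of cells. The reversed ratios were H2-D1 at 0.795 and H2-T23 at 0.579 in arterial-like cells with up to 10% mitochondrial UMIs (28 and 4 cells, an alternative chosen after seeing the data) and H2-K1 at 1.24 in venous-like cells set by each cell's markers. The cause was not tested. In EC-like cells, ratios ranged over the alternatives from 1.49 to 1.90 for H2-T23, 1.59 to 2.02 for Tap1, 1.36 to 1.79 for Psmb9 and 0.850 to 1.06 for H2-Q7. Also chosen after seeing the data were subtypes with up to 6000 genes, the interferon list without Irf1 and the fibroblast cluster with at least 10 cells of each library. Depth limits Tap1, Tap2 and Psmb9 outside general capillary- and aerocyte-like cells, where most groups hold under 50 UMIs.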

Other observations

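Clusters that kept no cell type name also held class I transcripts. The cluster led by Ndufa4l2 and Trpc6, both listed pericyte markers, had 24 normoxia and 6 hypoxia cells. The 10 genes summed there to 8431 and 10150 CPM, with the 10 EC markers at 80.6% and 53.5% of their EC-like level. The cluster led by Pcp4l1 (182 normoxia and 36 hypoxia cells) summed to 6997 CPM of the 10 genes in normoxia and 9188 in hypoxia, with the 10 EC markers at 72.6% and 66.3% of their EC-like level. The cluster led by Igkc and Ccl4, genes of B cells and of activated myeloid or lymphoid cells, had 19 normoxia cells, 6395 CPM of the class I genes and 4.64% of the EC-like level of the EC markers. A cluster of 16 normoxia cells led by Hhip and Aspn stood at 1550 CPM, the lowest of the normoxia groups of at least 10 cells.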
